A study of Mus musculus with 9 samples.

Results

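The 45 genes described here encode the extracellular and membrane parts of Wnt signaling: 19 Wnt ligands, 15 receptors (Fzd1 to Fzd10, Lrp5, Lrp6, Ror1, Ror2 and Ryk) and 11 secreted modulators (4 R-spondins, 4 Sfrp genes and 3 Dkk genes). They were chosen by gene name, with earlier results of these data known, from the 21911 protein-coding genes of GENCODE M21 on mm10. Open chromatin was mapped in mouse embryonic fibroblasts (MEFs), at a passage below 8, with ATAC-seq, an assay that uses the transposase Tn5 to place sequencing adapters in open DNA. There were 4 groups: wild type MEFs (WT, 3 libraries), Anp32e null MEFs (3 libraries), Anp32e null MEFs given Non-targeting siRNA as a pool (NT siRNA, 1 library), and Anp32e null MEFs given a pool of 4 siRNAs against H2A.Z (H2A.Z siRNA, 2 libraries). The siRNAs were introduced by lipofection, and the loss of H2A.Z cannot be checked in peak lists. The study shows a western blot of the H2A.Z knockdown, with lysates of the same transfections. It also states that an over-tagmented replicate of the knockdown ATAC-seq was left out. Both siRNA groups lack Anp32e, the gene of a histone chaperone that removes the histone variant H2A.Z from chromatin, and neither has a wild type counterpart here. The sample labels name 1 peak list for all libraries of a group, and how the libraries were combined for it is not given in the sources used here. Each group therefore has 1 value per gene, with no error between replicates and no test between groups. Counts for the Wnt genes are given beside the same count over all protein-coding genes.

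Wnt proteins are lipid-modified secreted signals that bind Frizzled receptors. With the co-receptors Lrp5 and Lrp6 they stabilize β-catenin, which acts with TCF/LEF factors on target genes, and with Ror1, Ror2 and Ryk they act without β-catenin on cell polarity and movement. R-spondins raise the amount of Frizzled at the surface, Sfrp proteins bind Wnts outside the cell, and Dkk1 and Dkk2 bind Lrp5 and Lrp6. Fibroblasts and the mesenchyme they come from both send and receive these signals.

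The lists of WT, Anp32e null and the NT and H2A.Z siRNAs held 84040, 82567, 89272 and 108409 peaks on the assembled chromosomes. The most frequent local background of a peak, which scales with sequencing depth, was 8.85, 5.12, 3.88 and 17.8 fragments in the same order. The median number of fragments at a summit was 50, 43, 54 and 156. By both measures WT was deeper than Anp32e null and the H2A.Z siRNA list was the deepest of the 4, whereas the NT siRNA list was the lowest by background and above WT and Anp32e null by summit fragments. Of 12 fibroblast marker genes, 11 had a peak within 1 kb of a transcription start site (TSS) in every list (all but Lum), whereas Ptprc, Cd3e, Itgam, Krt5, Krt14, Neurod1, Nanog and Myog had none in any list. Markers of other cell types with a TSS peak numbered 4, 3, 4 and 4 of 4 for endothelium (WT, Anp32e null, NT siRNA, then H2A.Z siRNA, the order of all such series below), 2 of 4 for epithelium in each list, and 0, 0, 1 and 2 of 5 for blood. They numbered 1, 2, 2 and 2 of 3 for neural cells, 1, 1, 1 and 2 of 3 for pluripotent cells and 0, 1, 0 and 0 of 2 for muscle (Myod1 in Anp32e null). Their part in the results was not tested. Accessibility is a mean over the cells of a culture, so fewer cells with an open site and a less open site in every cell cannot be told apart.

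Throughout, a TSS peak is a peak that overlaps the 1 kb on either side of any annotated TSS of the gene by at least 1 bp, and its rank is the percentile of its fold (fragments at the summit over the local background, each plus 1) within its own list. Where a gene had more than 1 TSS peak, the one of highest rank stands for it. The fold divides by the background around the peak, so a strong peak inside a broad open region can have a modest rank, and the number of fragments is given beside it. Fragments are not comparable between lists until divided by the background of the list.

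The sequences below are those that the results turn on. They are from the GRCm38 reference, are written 5′ to 3′ on the strand of the gene, and carry in capitals each match, on either strand, to 6 short motifs: TCF/LEF (CTTTGAT), AP-1 (TGANTCA), SP1 (GGGCGG), NF-Y (CCAAT), TEAD (GGAATG) and RUNX (TGTGGT). Matches may overlap each other. First are the 250 bases before the RefSeq start of 4 genes, in the RefSeq promoter table for GRCm38.p6: Wnt1 (chr15:98789607-98789856, + strand), whose TSS peak changed rank among the lists, Fzd4 (chr7:89404116-89404365, + strand), a receptor with a broad TSS peak, Ror1 (chr4:100095541-100095790, + strand), the highest ranked TSS peak of the 45 genes, and Rspo1 (chr4:124986180-124986429, + strand), covered by no WT peak.
Wnt1 promoter: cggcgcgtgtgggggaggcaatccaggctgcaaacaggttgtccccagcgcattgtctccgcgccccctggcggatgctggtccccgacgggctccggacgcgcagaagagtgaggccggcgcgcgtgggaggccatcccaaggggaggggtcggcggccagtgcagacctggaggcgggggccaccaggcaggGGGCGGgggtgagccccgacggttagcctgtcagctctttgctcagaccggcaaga
Fzd4 promoter: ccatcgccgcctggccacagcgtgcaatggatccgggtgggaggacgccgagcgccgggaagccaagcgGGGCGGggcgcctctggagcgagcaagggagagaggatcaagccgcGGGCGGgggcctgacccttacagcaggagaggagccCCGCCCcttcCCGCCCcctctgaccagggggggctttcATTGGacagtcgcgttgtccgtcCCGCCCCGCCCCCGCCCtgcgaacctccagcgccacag
Ror1 promoter: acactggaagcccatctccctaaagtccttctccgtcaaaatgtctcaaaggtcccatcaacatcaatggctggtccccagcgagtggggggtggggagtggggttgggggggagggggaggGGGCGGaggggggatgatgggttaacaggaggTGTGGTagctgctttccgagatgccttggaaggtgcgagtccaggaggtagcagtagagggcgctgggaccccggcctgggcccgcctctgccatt
Rspo1 promoter: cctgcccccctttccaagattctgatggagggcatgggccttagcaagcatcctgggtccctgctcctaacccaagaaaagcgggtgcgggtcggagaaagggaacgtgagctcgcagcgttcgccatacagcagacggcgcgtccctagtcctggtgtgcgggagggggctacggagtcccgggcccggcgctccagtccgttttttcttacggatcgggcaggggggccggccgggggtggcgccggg
All 250 bases of the Wnt1 and Fzd4 stretches lay under a peak in each of the 4 lists. The Ror1 stretch was covered over its last 99, 86, 99 and 108 bases. Of the Rspo1 stretch, 0, 122, 250 and 250 bases lay under a peak.

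The next 5 stretches are 201 bases centred on summits that were called in some of the lists or are a strong distal site of a gene: the intronic Ror1 site of highest rank that was called in every list (chr4:100386706-100386906, + strand), the one of highest rank called in WT alone (chr4:100401871-100402071, + strand), the intronic Ror2 site of highest rank called after H2A.Z siRNA alone (chr13:53240806-53241006, - strand), the Wnt3a site nearest to its start called after H2A.Z siRNA alone (chr11:59289750-59289950, - strand), and the Wnt8b site upstream of the start that was called in Anp32e null and after NT siRNA (chr19:44492442-44492642, + strand).
Ror1 site, every list: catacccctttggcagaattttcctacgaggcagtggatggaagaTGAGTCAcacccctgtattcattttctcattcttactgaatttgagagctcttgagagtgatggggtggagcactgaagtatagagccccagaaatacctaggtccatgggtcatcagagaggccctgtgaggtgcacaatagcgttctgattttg
Ror1 site, WT alone: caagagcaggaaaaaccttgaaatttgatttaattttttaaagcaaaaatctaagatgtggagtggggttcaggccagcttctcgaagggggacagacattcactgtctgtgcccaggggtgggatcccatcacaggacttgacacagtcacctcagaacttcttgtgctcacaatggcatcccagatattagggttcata
Ror2 site, H2A.Z siRNA alone: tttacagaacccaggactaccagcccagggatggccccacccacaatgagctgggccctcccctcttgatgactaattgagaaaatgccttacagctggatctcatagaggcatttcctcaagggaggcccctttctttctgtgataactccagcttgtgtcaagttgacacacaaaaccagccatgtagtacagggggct
Wnt3a site, H2A.Z siRNA alone: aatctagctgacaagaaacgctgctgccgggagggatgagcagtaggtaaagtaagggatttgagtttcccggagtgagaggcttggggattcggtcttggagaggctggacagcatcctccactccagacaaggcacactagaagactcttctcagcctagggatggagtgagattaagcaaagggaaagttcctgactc
Wnt8b site, null and NT siRNA: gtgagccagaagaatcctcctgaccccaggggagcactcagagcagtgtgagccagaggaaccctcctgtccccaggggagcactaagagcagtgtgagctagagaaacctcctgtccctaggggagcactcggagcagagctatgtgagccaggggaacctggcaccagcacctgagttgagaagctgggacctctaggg
Only the Ror1 site called in every list holds a match, 1 AP-1 motif. Of the Ror2 site, 93.5% is marked as repeat in the reference, and in the Wnt8b site a run of 11 bases occurs 3 times. Whether reads map uniquely to these stretches was not tested.

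Receptors had TSS peaks almost without exception, and ligands less uniformly in WT. In WT, 37 of 45 genes had a TSS peak (82.2%, 95% Wilson interval 68.7 to 90.7, counting error only) against 67.1% of all protein-coding genes. The count was 41 in Anp32e null (background 66.7%). In the siRNA lists it was 39 with NT (background 66.8%) and 41 with H2A.Z (background 68.4%). All 15 receptors, 13 of 19 ligands and 9 of 11 modulators had one in WT, and the ligand share, 68.4%, was near that of all genes. In the other 3 lists, taken in the same order as before, the numbers were 15, 14 and 14 receptors, 16, 16 and 17 ligands, and 10, 9 and 10 modulators. After H2A.Z siRNA the shares of ligands (89.5%) and receptors (93.3%) were thus close. The ligand share rests in part on peaks that reach into the TSS window from outside. With the summit required inside it, 35 genes had a TSS peak after H2A.Z siRNA, without Wnt3, Wnt6, Wnt9a, Wnt10a, Fzd8 and Dkk2. A TSS peak was present in all 4 lists at 35 of 45 genes (background 63.7%), made up of 14 receptors, 13 ligands and 8 modulators. It was absent from every list at 2, Wnt8a and Dkk3 (background 28.8%).

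Classes differed in the rank of these peaks as well as in their number. The median rank in WT was 80.2 for receptors, 57.3 for modulators and 35.6 for ligands, beside 81.7 for all protein-coding genes with a TSS peak. In Anp32e null the medians were 76.2, 53.2 and 38.3 beside 80.0 for all such genes. After NT siRNA they were 71.0, 53.0 and 54.3 beside 79.5, so the ligand median exceeded that of modulators there. After H2A.Z siRNA they were 82.2, 46.9 and 55.0 beside 81.5. The ligand median was thus below that of all genes in every list. Each median covers the genes with a TSS peak in that list, so the genes differ between lists. Over the 9 modulators with a TSS peak in both siRNA lists, the median change was 4.15 points upward after H2A.Z siRNA. The highest ligand rank was 77.9 in WT (Wnt2), and after H2A.Z siRNA 1 ligand, Wnt6, lay above the median of all genes, at 84.9.

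**Figure D1:**
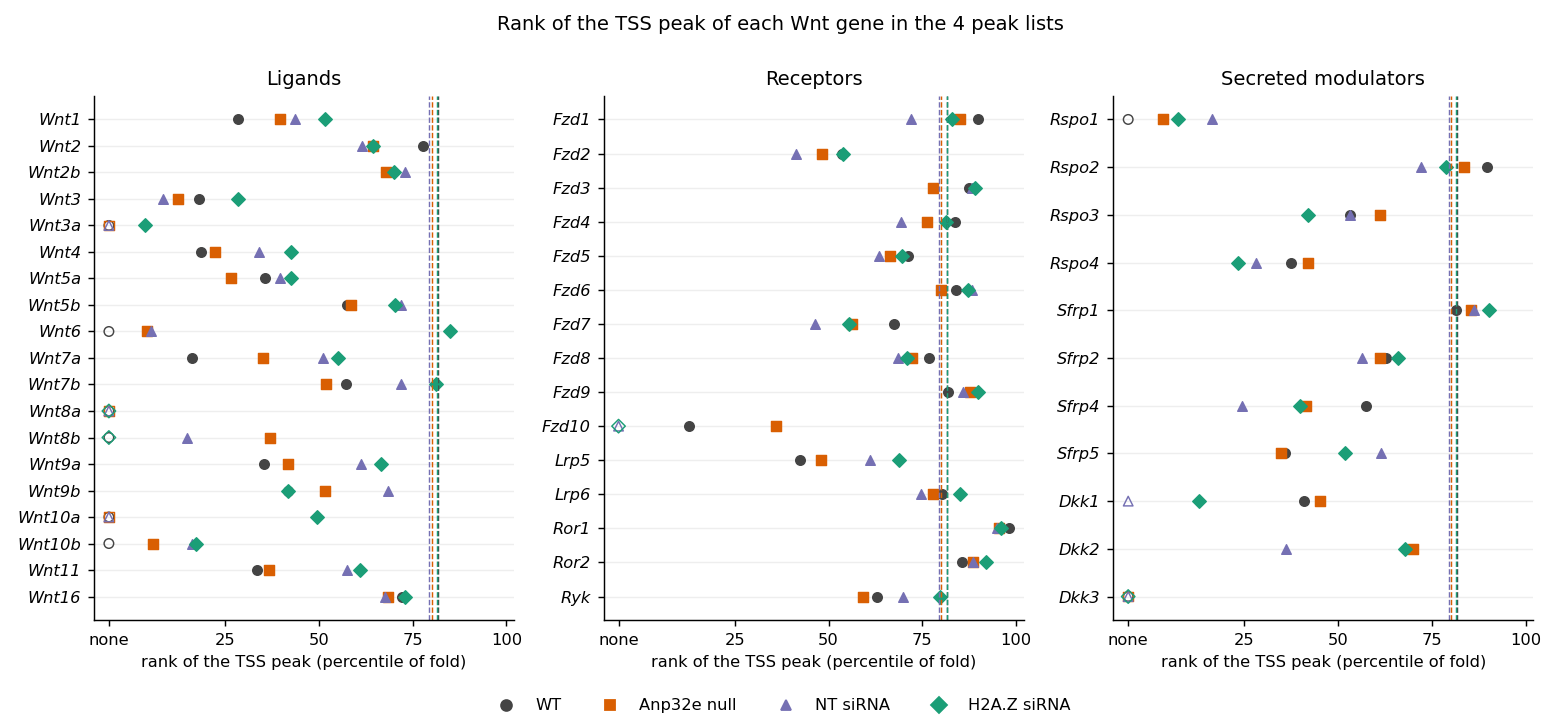
Rank of the TSS peak (percentile of fold within its list, x axis) of each of the 45 genes (y axis) in the 4 lists. Open symbols at "none" mark no TSS peak, and dashed lines give the median rank over all protein-coding genes with a TSS peak. Most receptors lie near these lines and most ligands to the left of them. Among receptors, Fzd10 alone lacks a TSS peak in some lists.

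Among ligands, the 3 of highest rank in WT were Wnt2, Wnt16 and Wnt2b. Wnt2, a ligand of mesenchyme, had ranks of 77.9, 64.4, 61.4 and 64.5, with 76, 66, 47 and 163 fragments. Wnt16 had 72.0, 68.4, 67.7 and 72.8, and Wnt2b had 68.1, 67.9, 73.0 and 70.0 in the same order. Wnt16 and Wnt2b thus stayed within 6 points among all lists, whereas Wnt2 was highest in WT. Wnt5a, a ligand of the pathway without β-catenin and known for its expression in mesenchyme, had lower ranks of 35.6, 26.6, 39.6 and 42.7. It had 4, 3, 4 and 3 TSS peaks over its 6 annotated starts.

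In 4 genes a TSS peak was present in Anp32e null and absent in WT: Wnt6, Wnt8b, Wnt10b and Rspo1. This is 8.89% of the 45 genes (3.51 to 20.7), beside 1.4% of all protein-coding genes. The reverse, a TSS peak in WT and not in Anp32e null, was found at 0 of 45 genes (background 1.89%; a share of up to 7.87% by the Wilson interval). WT was the deeper list of the pair. At equal background (fragments and background scaled down to the list of lowest background and called again, which does not equalize the fragments at summits), a TSS peak in Anp32e null and not in WT was found at 5 genes, these 4 and Fzd10, and the reverse at 0. For 3 of the 4 (Wnt6, Wnt10b and Rspo1) a TSS peak was present in all 3 lists of Anp32e null cells and not in WT (background 0.812%). At Wnt6 the one after H2A.Z siRNA was a merged peak, described below. With the same number of peaks in each list, Wnt6 had none after NT siRNA, and Wnt10b and Rspo1 had none after H2A.Z siRNA.

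In Anp32e null the ranks of these 4 peaks were 3.27 to 37.0. At Wnt10b, a ligand of the β-catenin pathway, the peak had no WT counterpart and ranks of 5.73, 16.2 and 17.1 in Anp32e null and the siRNA lists, with 36, 92 and 324 fragments. It lay in an exon (chr15:98776354-98777124 after H2A.Z siRNA), 450 bp from the nearest annotated start and 1571 bp from the start of the gene. At Rspo1, which enhances Wnt signals through Lgr receptors, ranks were 3.27, 16.5 and 7.41 with 38, 42 and 97 fragments, with the summit 100 bp upstream of the start in the siRNA lists (chr4:124986034-124986809 after H2A.Z siRNA). At both genes these ranks were below 20 wherever the peak was called.

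At Wnt6 and Wnt8b, peaks whose summits lay outside the TSS window reached into it. Wnt6, a ligand known from epithelia, had in WT a peak of rank 61.6 at an intronic site that did not reach the TSS window and whose strongest summit lay 1378 bp from the start. The same site had ranks of 65.7 in Anp32e null and 88.3 after NT siRNA. A second, weak peak of 455 bp in Anp32e null and 517 bp after NT siRNA, with ranks of 4.19 and 5.36, lay nearer to the start. After H2A.Z siRNA both were covered by a single peak of 1639 bp (chr1:74772019-74773657) with 606 fragments and a rank of 84.9, whose summit lay 1373 bp from the nearest start. The 79.5 points between the siRNA lists therefore compare a minor peak with a merged one, and at the intronic site itself the rank was 88.3 with NT siRNA against 84.9 with H2A.Z siRNA.

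At Wnt8b, the start had a peak 930 bp upstream with 17 fragments in Anp32e null and 17 after NT siRNA, and none in WT or after H2A.Z siRNA. A TSS peak in this combination of lists occurred at 0.0593% of all genes. It is the only TSS peak of the 45 genes present after NT siRNA and absent after H2A.Z siRNA (background 0.484%), and the latter was the deepest list. In Anp32e null a stronger peak of 28 fragments reached the window of a second, internal start, from an exonic site that was called in all 4 lists with ranks of 62.1, 37.0, 58.3 and 46.9. A further site of Wnt8b, 6007 bp upstream, was not called in WT and had ranks of 21.4, 77.1 and 82.7 in the other lists.

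After H2A.Z siRNA, 3 genes had a TSS peak that was absent after NT siRNA: Wnt3a, Wnt10a and Dkk1 (background 2.06%). The H2A.Z siRNA list was the deeper of the pair. Wnt3a and Wnt10a had it in no other list (background 1.26%). The Wnt3a peak, in an intron 902 bp from the start, was 302 bp wide with 96 fragments and a rank of 3.70. The Wnt10a peak (chr1:74794149-74795174) had 126 fragments and a rank of 49.4, but its summit lay 1449 bp from the nearest start, at a site that was called in all lists with ranks of 16.1, 3.94, 36.2 and 49.4. Dkk1, an inhibitor that binds Lrp5 and Lrp6, had a TSS peak in every list but NT siRNA (background 0.397%), with ranks of 41.0, 45.1 and 12.8 and with 34, 29 and 46 fragments. At equal background, 1 of the 3, Wnt10a, was still called.

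Fzd10 was the one receptor without a TSS peak in some lists. It had 26 fragments and a rank of 12.7 in WT, and 25 fragments and a rank of 36.0 in Anp32e null, and no TSS peak in either siRNA list (background 0.922%). Its summit lay 768 bp (WT) and 575 bp (Anp32e null) downstream of the start, in an exon. No peak was called anywhere in its gene body and 10 kb on either side after NT siRNA or H2A.Z siRNA, the latter being the deepest list.

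The highest ranked TSS peak of the 45 genes was at a receptor. Ror1, a receptor for Wnt5a, led in each list, at 98.0, 95.4, 94.9 and 96.0, with 329, 222, 206 and 757 fragments. Its summit lay 252 to 274 bp downstream of the start, in the UTR. Fzd1 had ranks of 89.9, 85.0, 72.1 and 83.0 with 350, 357, 505 and 2156 fragments. Fzd3 had 87.3, 77.7, 88.3 and 89.0 with 135, 90, 195 and 665 fragments. Ror2 had 85.6, 88.5, 88.5 and 91.9, above Fzd3 by more than 10 points in Anp32e null.

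At Fzd1 the lowest fold rank, after NT siRNA, went with the highest local background of its 4 lists. There its peak held 130 times the genome-wide background in fragments, against 39.5 times in WT, while the background around it was 11.8 times the genome-wide one, against 3.92 times in WT. Ranked by −log10 p, Fzd1 was at 97.3, 97.5, 96.3 and 98.6. Fzd8 and Fzd7 had like values after NT siRNA, with local backgrounds of 15.2 and 14.4 times the genome-wide one. The median over all receptors was 6.97 after NT siRNA and 2.07 in WT, and over all protein-coding genes with a TSS peak 4.61 and 1.99. By −log10 p the receptor median was 86.0, 81.2, 88.5 and 91.0 in the 4 lists, beside 85.4, 84.9, 88.3 and 89.7 for all such genes.

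Receptor TSS peaks were also the widest at the median, with overlap between the classes. The median TSS peak of a receptor was 1635, 1260, 1530 and 1930 bp wide. The median over all protein-coding genes was 1149, 1116, 1083 and 1294 bp. Ligand medians were 1086, 952, 881.5 and 1401 bp, and modulator medians 1027, 948, 989 and 1108.5 bp. The widest in WT were Fzd7 (3122, 3097, 3169 and 3294 bp), Fzd5 (2994, 2927, 2457 and 3129 bp) and Fzd8 (2894, 2618, 2520 and 2823 bp). Fzd5, Fzd7 and Fzd8 each have a single coding exon, and a relation of this to peak width was not tested. Rspo3 had a narrow TSS peak in every list, with 370, 403, 400 and 405 bp, and the narrowest in WT was at Wnt4 with 216 bp.

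**Figure D2:**
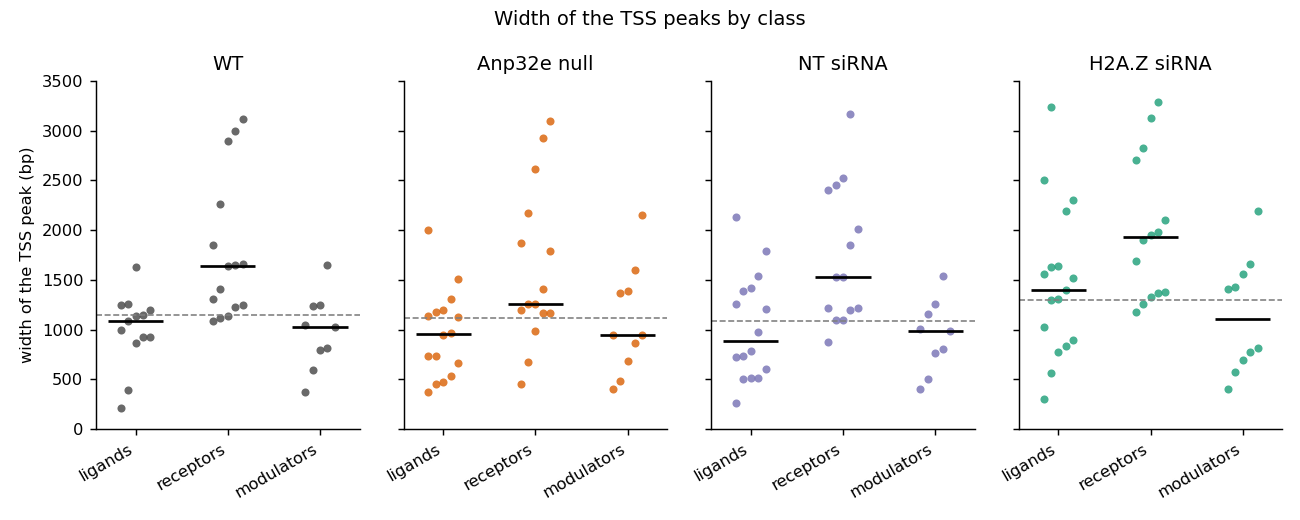
Width in bp (y axis) of the TSS peak of each gene, by class (x axis) and list (panels). Points are genes, black lines class medians, and the dashed line the median over all protein-coding genes with a TSS peak. Receptor medians (1260 to 1930 bp) lie above the dashed line in each list, and the points of the classes overlap.

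Between WT and Anp32e null, few of these ranks moved by 10 points or more. Of the 37 genes with a TSS peak in both, 3 were at least 10 points higher in Anp32e null (background 6.53%) and 3 at least 10 points lower (background 11.1%). Both shares, 8.11%, lay near the background, but the counts moved with the setting. At equal background 6 were higher (Wnt1, Wnt7a, Wnt9a, Wnt9b, Lrp5 and Rspo3) and 2 lower (Wnt2 and Sfrp4), and among peaks with a −log10 q of at least 5 the same 6 were higher and 4 lower (Wnt2, Sfrp4, Fzd7 and Fzd3). The median change of the 37 was -1.62 points, beside -1.36 over all protein-coding genes. Fragments relative to the background of the list were higher in Anp32e null by a median log2 ratio of 0.62 for these genes and 0.65 for all genes.

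The 3 that ranked higher in Anp32e null were Wnt7a, Wnt1 and Fzd10. Wnt7a, a ligand of limb and brain development, had ranks of 16.1, 35.0, 51.1 and 55.0, with its summit 512 to 535 bp upstream of a start and 34, 32, 59 and 189 fragments. Wnt1, the founding ligand of the family, had 28.4, 39.6, 43.7 and 51.6, with 48, 63, 143 and 545 fragments. At both genes WT was the lowest of the 4 lists. Fzd10 is described above. Wnt1 and Wnt7a kept the call at equal background and Fzd10 did not.

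The 3 that ranked lower in Anp32e null were Sfrp4, Wnt2 and Fzd7. Sfrp4, a secreted Wnt inhibitor of mesenchyme, had 57.3, 41.5, 24.5 and 39.8, with 159, 104, 68 and 252 fragments. By rank, WT was thus the highest of the 4 lists at Sfrp4, as at Wnt2. Relative to the background of the list, fragments were 18.0, 20.3, 17.5 and 14.1 at Sfrp4 and 8.59, 12.9, 12.1 and 9.15 at Wnt2. WT was not the highest list at either gene on that scale. Fzd7 had ranks of 67.5, 56.2, 46.4 and 55.5, while its fragments relative to the background of the list were 19.1, 25.2, 96.1 and 91.7. Ranked by −log10 p, Wnt2 and Fzd7 no longer passed 10 points and Sfrp4 did.

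Between NT siRNA and H2A.Z siRNA, more ranks were higher than lower after H2A.Z siRNA, at these genes as over the genome. Of the 38 genes with a TSS peak in both, 8 were at least 10 points higher (21.1%, background 14.1%) and 2 at least 10 points lower (5.26%, background 2.57%). The median change was 4.64 points, beside 2.09 over all genes. The 8 were Wnt6 (described above), Dkk2, Wnt3, Sfrp4, Fzd2, Fzd4, Fzd1 and Lrp6. When each list was cut to the same number of peaks, only Dkk2 passed and 5 genes were at least 10 points lower, so this split depends on how many peaks of each list are ranked. Fragments relative to the background went the other way, with a median log2 ratio of -0.36 for these genes and -0.31 over all genes. The TSS peak was wider after H2A.Z siRNA at 37 of the 38 genes (97.4%), beside 94.4% of all genes.

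Dkk2, a modulator related to Dkk1, had the largest change of these apart from Wnt6, from 36.0 to 67.9, with ranks of 68.1 in WT and 70.0 in Anp32e null. After H2A.Z siRNA its peak was 2188 bp wide with the summit 1958 bp from the start, and after NT siRNA it was 989 bp wide with the summit 448 bp from the start, so different summits were compared. Wnt3, a ligand of early patterning, had 18.0, 12.3, 8.44 and 28.5 with 39, 25, 16 and 73 fragments, and its summit lay at -1353, -588, -519 and -1359 bp from the start, so at Wnt3, too, different summits were compared. Receptor changes were smaller. After NT siRNA and H2A.Z siRNA, Fzd2 ranked at 41.3 and 53.8, Fzd4 at 69.3 and 81.3, Fzd1 at 72.1 and 83.0, and Lrp6, a co-receptor of the β-catenin pathway, at 74.7 and 85.1. Fzd2, Fzd4, Fzd1 and Lrp6 did not pass 10 points when ranked by −log10 p.

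The 2 genes lower after H2A.Z siRNA were Wnt9b and Rspo3. Wnt9b, a ligand of kidney development, had 41.7, 51.5, 68.4 and 41.8, with 48, 42, 48 and 84 fragments. Relative to the background of the list this was 5.42, 8.20, 12.4 and 4.71. Rspo3, an R-spondin of vessels and mesenchyme, had 53.2, 61.3, 53.0 and 41.9, and 9.60, 26.6, 42.0 and 21.5 relative to the background. Both were highest after NT siRNA on the latter scale. At equal background, Wnt9b and Rspo3 passed again, joined by Rspo1, Rspo4 and Sfrp5.

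**Figure D3:**
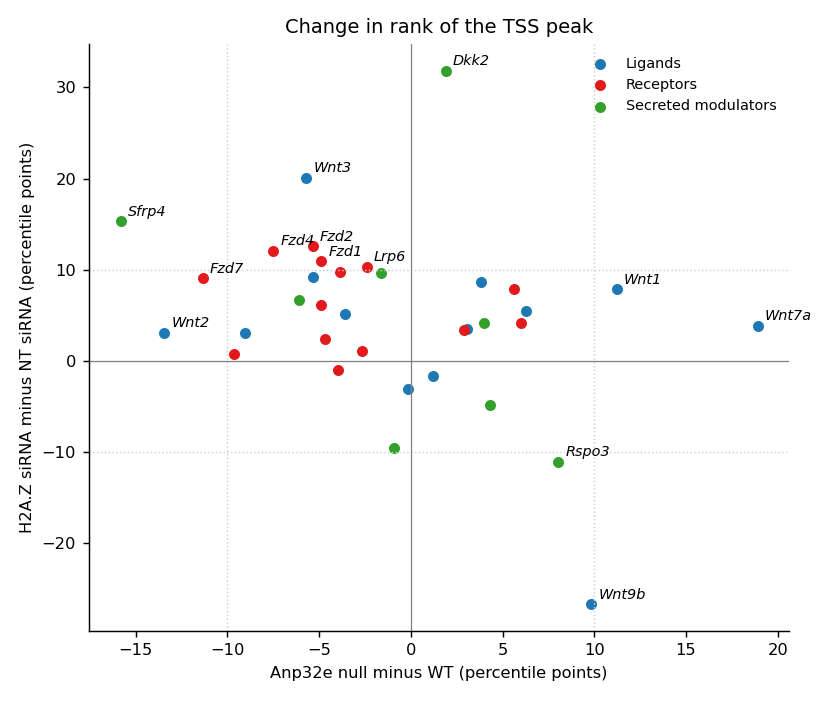
Change in rank of the TSS peak in percentile points, Anp32e null minus WT (x axis) against H2A.Z siRNA minus NT siRNA (y axis), for the 35 genes with a TSS peak in all 4 lists. Colors give the class, dotted lines mark 10 points, and genes past 10 points in either direction are named. Fzd7 and Sfrp4 lie at upper left, Wnt9b and Rspo3 at lower right.

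The 2 contrasts share no library. Across the 35 genes with a TSS peak in all lists, the rank changes had a Spearman correlation of -0.33, and across 13967 protein-coding genes of -0.17. This is a description, since genes of 1 list share its depth and background.

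Anp32e null MEFs with and without the NT siRNA differed as well. Of 16 ligands with a TSS peak in both, 9 ranked at least 10 points higher after NT siRNA (Wnt4, Wnt5a, Wnt5b, Wnt7a, Wnt7b, Wnt9a, Wnt9b, Wnt10b and Wnt11; background 13.5%) and 1, Wnt8b, at least 10 points lower (background 12.3%). At Wnt5b and Wnt8b the peaks compared lay at different starts of the gene and did not overlap. Of 9 modulators, 2 were higher (Sfrp5 and Rspo1) and 4 lower (Dkk2, Sfrp4, Rspo4 and Rspo2). Of 14 receptors, 3 were higher (Fzd3, Lrp5 and Ryk) and 1 lower (Fzd1). The largest increase was that of Sfrp5, by 26.5 points. The comparison was added after the values were seen. It involves 1 NT siRNA library, and transfection, library preparation and depth cannot be told apart in it.

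All 45 genes had at least 1 peak in the gene body and 10 kb on either side in WT and in Anp32e null, and 44 after either siRNA. Among all protein-coding genes, 18.9% had none in WT. The windows held 223, 219, 251 and 313 distinct peaks. Merged across lists these were 353 sites, which are set beside the 91193 merged sites in the windows of all protein-coding genes. Of the 353, 160 were called in all 4 lists (45.3%, background 47.1%), 57 after H2A.Z siRNA alone (16.1%, background 15.2%) and 20 in WT alone (5.67%, background 5.8%), all near the background. Sites called in Anp32e null alone numbered 3 (0.85%, background 2.6%). The summit lay more than 1 kb from any annotated start at 298 (84.4%, background 76%), and 212 were intronic (60.1%, background 63.8%).

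**Figure D4:**
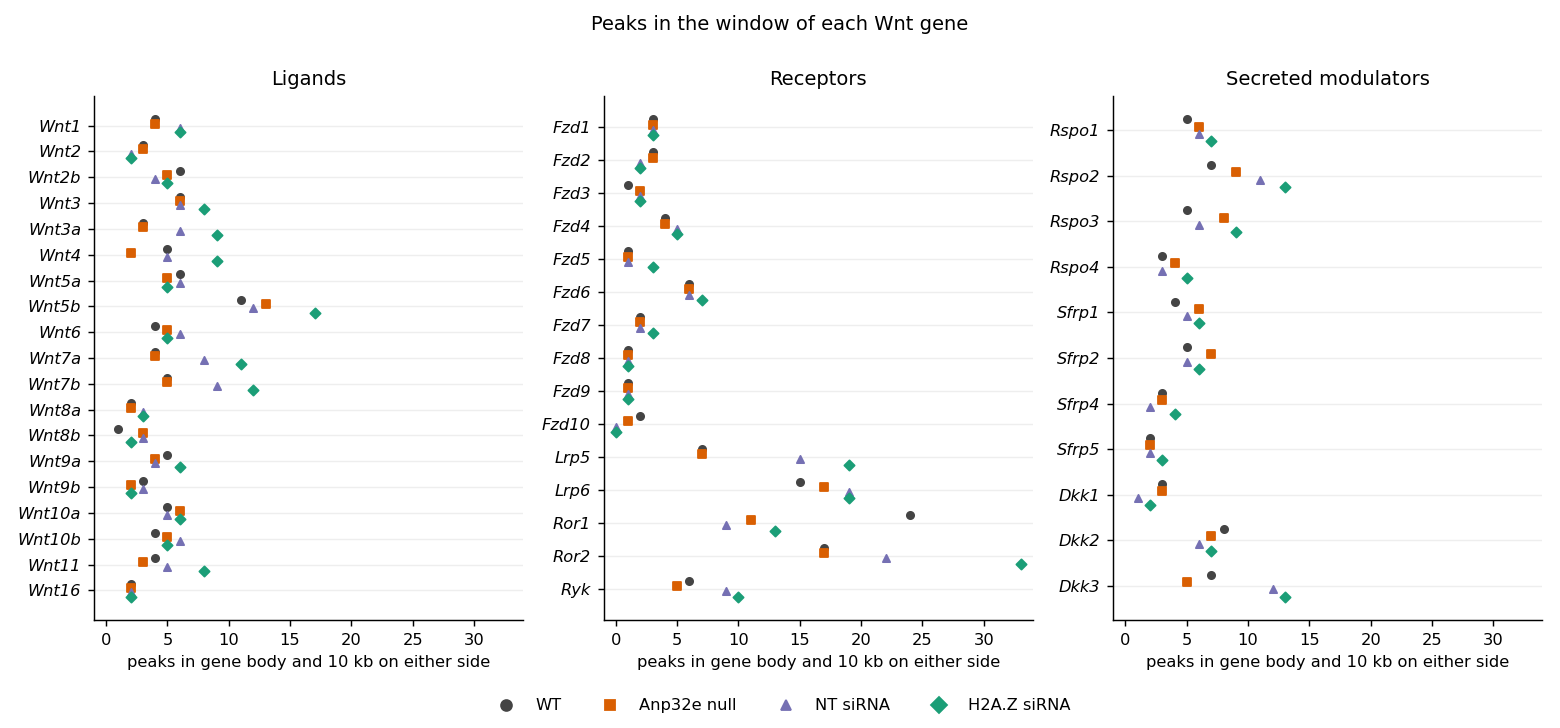
Number of peaks in the gene body and 10 kb on either side (x axis) for each of the 45 genes (y axis) in the 4 lists. Ror1 has 24 peaks in WT and 9 to 13 in the other lists, and Ror2 has 17, 17, 22 and 33.

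The largest difference in the number of peaks in a window between WT and Anp32e null was at Ror1. This receptor tyrosine kinase-like gene spans chr4:100095791-100444765, and its window held 24 peaks in WT against 11, 9 and 13 in the lists of Anp32e null cells. They covered 16636, 6047, 4696 and 7395 bp. Of 1378 genes with 10 or more WT peaks, 1.74% had at least 2 times as many in WT as in Anp32e null. Ror1 was the one gene of 4 such Wnt genes (Wnt5b, Lrp6, Ror1 and Ror2) that did. At equal background it had 22 and 10 peaks, and 11 of 1190 windows (0.924%) met the same rule. After H2A.Z siRNA, the deepest list, Ror1 had 12 peaks at equal background.

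Each of the 24 Ror1 sites was called in WT, and 10 of them in WT alone. The WT-only sites were not limited to weak peaks: that at 306180 bp from the start had a rank of 73.1 with 64 fragments, that at 152320 bp had 70.2 with 58, and that at 349458 bp had 63.7 with 51. The 8 sites called in every list included the TSS peak and 2 strong intronic ones. The site at 291015 bp had ranks of 97.4, 92.0, 87.4 and 94.4, and the site at 178209 bp had 93.3, 81.2, 61.7 and 89.7. At the site 191235 bp from the start, ranks were 83.5, 64.2, 17.6 and 45.9. WT was the highest list at each of these 3 sites, while the rank of the TSS peak differed by 2.67 points between WT and Anp32e null.

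Ror2, the paralog of Ror1, had its highest count after H2A.Z siRNA. Its window held 17, 17, 22 and 33 peaks. Of its 37 sites, 11 were called after H2A.Z siRNA alone, with ranks up to 48.7. It was the one gene of 6 Wnt genes with 10 or more NT siRNA peaks that had at least 1.5 times as many after H2A.Z siRNA (background 6.67%). At equal background the counts in the siRNA lists were 22 (NT) and 27 (H2A.Z), and with the same number of peaks in each list 20 and 19, so Ror2 no longer met the rule. At equal background 19 of 1650 windows (1.15%) met it. A site in the UTR at the end of the gene, 176405 bp from the start (chr13:53109598-53110508), had ranks of 59.8, 78.6, 98.0 and 97.5, the highest after NT siRNA.

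**Figure D5:**
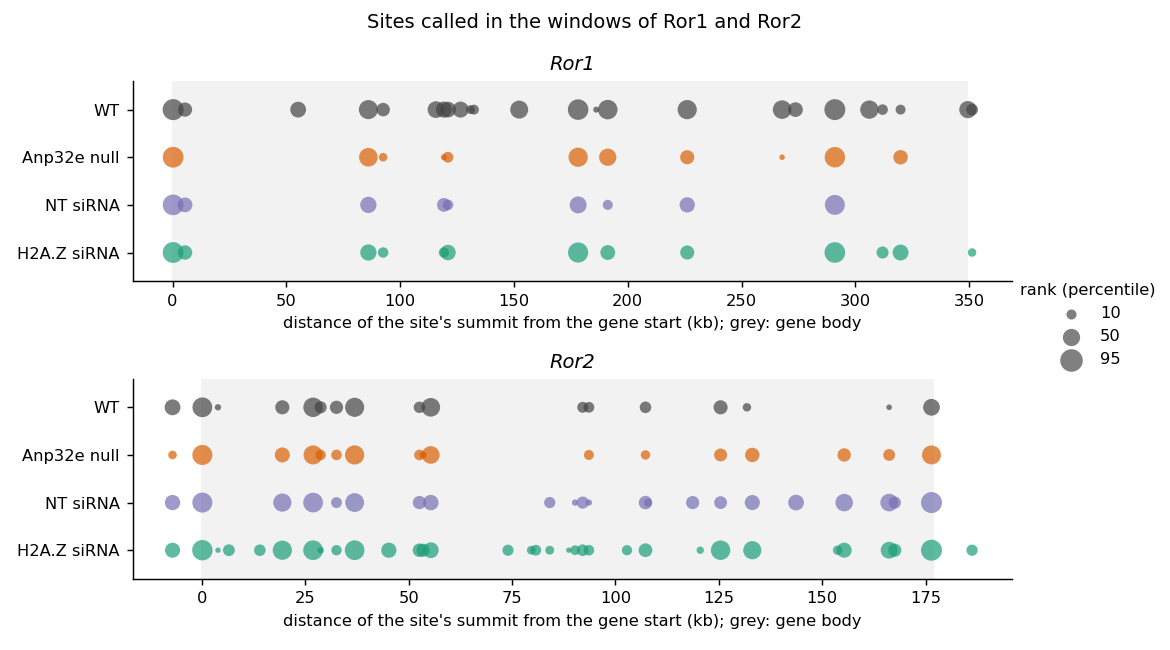
Sites called in the windows of Ror1 (24 sites) and Ror2 (37 sites) by distance of the summit from the gene start in kb (x axis) and list (y axis). Point size gives the rank within the list, and grey marks the gene body. WT has more Ror1 sites than the other lists (24 against 9 to 13), and H2A.Z siRNA has the most Ror2 sites (33).

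A peak of the window outside the TSS windows of the gene ranked above its TSS peak at 16 of 37 genes in WT (43.2%, background 37%) and 20 of 41 in Anp32e null (48.8%, background 39.2%). In the siRNA lists this was so at 26 of 39 genes with NT (66.7%, background 43.2%) and 29 of 41 with H2A.Z (70.7%, background 44.7%). Rspo2, Lrp6 and Sfrp1 are given as examples, picked after their values were seen. The highest of the 353 sites in each list was 8915 bp upstream of Rspo2, with ranks of 98.7, 99.1, 98.3 and 99.9 and 141, 191, 217 and 1260 fragments, while the Rspo2 TSS peak had 89.6, 83.5, 72.1 and 78.9. A site in an Lrp6 intron, 93588 bp from the start, had 97.3, 91.0, 94.1 and 91.4, beside 80.2, 77.8, 74.7 and 85.1 at its TSS. Sfrp1, a secreted Wnt inhibitor, had 81.4, 85.4, 86.1 and 90.2 at its TSS, and an intronic site 17422 bp from the start had 49.3, 83.8, 90.4 and 96.8. At that Sfrp1 site WT was the lowest list.

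The 2 genes without a TSS peak had peaks elsewhere. Wnt8a, a ligand of early embryos, had a site 3897 bp upstream with ranks of 69.6, 86.3, 90.4 and 91.9, and 2, 2, 3 and 3 peaks in its window. Dkk3, which is grouped with the Dkk genes but differs from them in function, had 7, 5, 12 and 13 peaks, all more than 1 kb from its annotated start. Its strongest sites were intronic, at 16263 bp (78.5, 74.9, 81.1 and 76.7), 10856 bp (77.4, 57.4, 79.5 and 87.0) and 4231 bp (78.3, 62.7, 74.1 and 70.5) from the start.

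Lrp5, the second β-catenin co-receptor, had 7, 7, 15 and 19 peaks. Ranks of its TSS peak were 42.3, 48.0, 61.0 and 68.9 in the same order. Wnt7a and Wnt7b had 4, 4, 8 and 11 and 5, 5, 9 and 12 peaks, with the same order of lists. Some windows overlap: Wnt6 with Wnt10a, Wnt1 with Wnt10b, and Wnt3a with Wnt9a share 3, 2 and 2 sites, so the counts of these neighbours are not independent.

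Of 38 other genes of the pathway (secretion, inhibitors, R-spondin receptors, the destruction complex and nuclear factors), 32, 32, 33 and 35 had a TSS peak (background 67.1, 66.7, 66.8 and 68.4%). Dkk4, Sost and Sostdc1, all secreted inhibitors, had one in no list (background 28.8%). The median rank of the 32 in WT was 76.6. Presence changed between WT and Anp32e null at 0 of the 38 genes (background 1.4% gained and 1.89% lost). Between those lists, 2 were at least 10 points higher in Anp32e null, Nkd2 (46.9 to 65.6) and Tcf7 (46.0 to 57.0; background 6.53%), and 5 at least 10 points lower (background 11.1%). The 5 were Znrf3 (75.2 to 56.5), Lef1 (80.3 to 63.5), Bcl9l (60.4 to 43.9), Rnf43 (74.6 to 60.3) and Notum (53.6 in WT, a change of -13.7 points). At Znrf3 the peaks compared lay at different starts of the gene and did not overlap. Znrf3, Rnf43 and Notum are negative regulators of Wnt signaling, and Lef1 and Bcl9l act with β-catenin in the nucleus. After NT siRNA, Znrf3 and Rnf43 were at 95.1 and 93.0.

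After H2A.Z siRNA, 6 of 33 of these genes were at least 10 points higher than after NT siRNA (background 14.1%) and 0 lower (background 2.57%). The 6 were Bcl9 (58.6 to 83.2), Cer1 (32.6 to 51.7), Tcf7l1 (67.7 to 82.2), Dvl1 (54.2 to 68.0), Gsk3a (58.7 to 72.4) and Bcl9l (36.0 to 47.1). At Bcl9 the peaks compared lay at different starts of the gene and did not overlap. Axin2, a common target gene of β-catenin, had 79.5, 80.2, 69.2 and 78.2, and Ctnnb1, which encodes β-catenin, had 70.0, 65.8, 65.8 and 73.2. Neither passed 10 points in the 2 contrasts.

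The base composition under the TSS summits was not used in choosing the genes. In windows of 201 bases, the median GC content in WT was 71.6% for receptors, 69.2% for ligands and 66.7% for modulators, beside 64.2% over all protein-coding genes with a TSS peak. The ratio of observed to expected CpG was 0.95, 0.63 and 0.74, beside 0.80. Under these WT summits the ligand median of CpG was thus the lowest of the 3 classes and below that of all genes. In the other 3 lists it was 0.63, 0.76 and 0.63 for ligands and 0.87, 0.96 and 0.96 for receptors.

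The RefSeq promoter table, with 250 bases before and 50 after each start, held 30 of the 45 genes with 33 promoters, too few for a statement on all 45, so a check of GC content over the 45 genes is void. The 33 promoters themselves had a median GC content of 69% and a ratio of observed to expected CpG of 0.77, beside 52.7% and 0.38 over the table. The part of this difference in the motif shares was not tested. By class the CpG ratio was 0.79 for 18 ligand promoters, 0.81 for 9 receptor promoters and 0.65 for 6 modulator promoters, so the order of the classes was not that under the TSS summits. Of the 33, 25 held an SP1 motif (75.8%, beside 35.7% of 32851 promoters in the table), 12 NF-Y (36.4%, beside 37.4%), 3 RUNX (9.09%, beside 16.8%), 2 AP-1 (6.06%, beside 7.81%), 2 TCF/LEF (6.06%, beside 3.73%) and 1 TEAD (3.03%, beside 14.7%). Under the summits of all WT peaks in the windows of the 45 genes, AP-1 occurred in 21.1% of 223, beside 27.8% of all WT peaks, and SP1 in 15.7%, beside 12.1%. SP1 occurred in 4 of 52 WT summits in modulator windows, 20 of 78 in ligand windows and 11 of 93 in receptor windows. TEAD occurred in 14 of 52, 17 of 78 and 15 of 93 in the same order, or 26.9%, 21.8% and 16.1%, beside 16782 of 84040 WT peaks in all. A motif match is a run of letters and not evidence that a factor was bound.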

How the data were processed

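ATAC-seq libraries of 9 samples were analysed as 4 peak lists. Per the labels and the study's methods, alignment by the authors used Bowtie2 on mm10, followed by removal of duplicates with Picard. They called peaks on paired fragments with MACS2 and deposited 1 list per group; how libraries were combined for the calling is not given in the sources used here. The deposited lists give each peak's fold over the local background (a ratio, with a pseudocount of 1), its −log10 p-value and −log10 q-value, and the summit's offset. All listed peaks had a q below 0.05. From fold and −log10 p, the authors' Poisson model returned the fragments at each summit as a whole number (within 0.05) for 100.0% of peaks, and the local background. Peaks on chromosomes 1 to 19, X and Y were used (WT 84040 of 84126, Anp32e null 82567 of 82640). TSSs were those of GENCODE M21 on GRCm38, 93444 positions of protein-coding genes. The 45 genes, the 38 other pathway genes, the marker lists and the rules were chosen with earlier results of these data known. No test was made, since each group is 1 list. Wilson intervals (95%) cover counting error only, and with no replicates the depth of a list limits which weak peaks could be called. Named were genes whose TSS peak was present in some lists only, whose rank changed by 10 points or more between WT and Anp32e null or between the siRNA lists, the 3 of highest WT rank per class, and those with no TSS peak. Further genes and distal sites named in the text were picked after their values were seen, and the shares of merged sites and of window peaks above the TSS peak were added then. Equal background means that fragments and background were scaled to the background of the NT siRNA list (3.88) and tested again at its threshold, which does not equalize the fragments at summits. Scripts were tested on simulated data. Python 3.11.15, pandas 2.3.3, NumPy 2.4.6 and pysam 0.24.0 were used, and matplotlib 3.10.9 drew the figures.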

Additional observations from a re-analysis of the deposited data

How the results depend on the processing

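No paired analysis was possible because all libraries of a group share 1 peak list, and leaving out single replicates was not run for the same reason. Members with a TSS peak fell from 37, 41, 39 and 41 (WT, Anp32e null, NT siRNA, H2A.Z siRNA) to 12, 10, 6 and 9 in the top 20000 peaks, and were within 1.5 times of the reported counts under every other setting. TSS peaks in Anp32e null and not in WT numbered 4, and 0 in the top 20000. The genes behind this count changed with the setting. At a −log10 q of 5, Fzd10 came in and Wnt6 dropped out. With the summit inside the window, Wnt3 came in and Wnt8b dropped out, and within 500 bp Wnt8b dropped out. Only Wnt10b and Rspo1 were called in every setting but the top 20000. In WT and not in Anp32e null there were 0, and 1 at a −log10 q of 5 (Wnt3), 2 in the top 20000, 1 within 500 bp of the TSS and 1 with the summit inside the window (Wnt7b in both). After H2A.Z siRNA and not NT siRNA there were 3, but 1 at equal background and 1 within 500 bp. In the reverse there was 1, but 0 at a −log10 q of 5, 0 in the top 20000, 0 within 500 bp, 4 with the summit inside the window and 4 with the same number of peaks (82567). Ranks at least 10 points higher in Anp32e null than WT numbered 3, and 6 at a −log10 q of 5 and 6 at equal background. Those lower numbered 3, and 6 in the top 20000 and 5 with the peak nearest to the gene start. After H2A.Z siRNA against NT siRNA, 8 were higher, and 14 at a −log10 q of 5, 1 with the same number of peaks, 0 in the top 20000 and 4 ranked by −log10 p. Of those lower there were 2, and 1 at a −log10 q of 5, 5 with the same number of peaks, 1 in the top 20000 and 5 at equal background. The causes of these changes were not tested. Of 92 values of these counts under alternatives, 64 were within 1.5 times of those reported. Window counts under the list alternatives, and the window rule at equal background, were chosen after seeing the data. The TSS peaks of Wnt8b and Fzd10 rest on 17 to 28 fragments.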
